A study of Rattus norvegicus with 22 samples.

Results

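Hepatic vagotomy, which severs the hepatic branch of the vagus, was compared with sham surgery in rats that had all breathed ozone. The comparison used the 11 liver RNA libraries titled as ozone exposed, 5 from vagotomised rats and 6 from sham-operated rats, out of 22 libraries in the series, whose other 11 came from rats exposed to air. Each library is taken as 1 rat, which the labels do not state outright, so p-values measure the spread between these libraries. The groups are called vagotomised ozone and sham ozone. Rats of both groups had surgery at 12 weeks of age, 5 to 6 days of recovery, and 1 ppm ozone for 4 h on 1 or 2 days, and they were killed within 2 h of the exposure. The labels name no genotype, and they give neither strain nor sex, nor which rats were exposed on 1 day and which on 2 days, so exposure days and surgery cannot be told apart here. Sham surgery controls for the operation, but the effect of ozone itself is shared by both groups and is not measured in this comparison.

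This nerve branch carries sensory fibres from the liver and portal region to the brainstem and motor fibres in the other direction, and it takes part in the control of glucose output and feeding and has been studied in liver regeneration. Inhaled ozone irritates the airways and sets off a neural and adrenal stress response, in which glucocorticoids and catecholamines change the use of glucose and lipids. Most hepatocytes of an adult liver rest outside the cell cycle, and genes of mitosis are therefore expressed at low levels in it.

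Reads assigned to genes ranged from 16259568 to 17582912 in vagotomised ozone libraries and from 14737832 to 19469381 in sham ozone libraries (exact permutation test, two-sided, p = 0.701). The 10 hepatocyte markers summed to normalised counts of 2333430 to 3118060 in vagotomised ozone and 2283370 to 3201590 in sham ozone and were abundant in all 11 libraries. Vagotomised ozone library 1 and sham ozone library 3 stood apart from the other 9 on principal component 1 (34.4% of the variance), with scores of -40.4 and -61.8 against -5.81 to 21.1. Those 2 libraries also had the lowest 5.8S ribosomal RNA, at normalised counts of 38.1 and 72.6 against 596 to 3775 in the others. On component 2 (17.9%), scores were -24.4 to -8.57 in vagotomised ozone and -0.0157 to 33.8 in sham ozone. Whether same-numbered or separately numbered rats shared a litter, cage or exposure day is not given in the labels.

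In the livers of vagotomised ozone rats 2 genes rose and 0 fell, out of 12352 tested. They were Lima1, which encodes an actin-binding protein that stabilises filament bundles, and Slc2a5, which encodes the fructose transporter GLUT5. The test was limma on log2(normalised count + 1), and a gene was called at a Benjamini-Hochberg adjusted p under 0.05. Calls made up 0.0162% of the genes tested, all of them higher. An unadjusted p under 0.05 was reached by 1557 genes (12.6%), 791 of them higher (6.4%) and 766 lower (6.2%). The median log2 change over all genes tested was -0.01, with quartiles of -0.16 and 0.15, and 116 genes had an estimate of at least 1 in either direction.

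Lima1 had normalised counts of 259, 218, 258, 291 and 268 in the 5 vagotomised ozone libraries, against 105, 96.1, 133, 157, 114 and 142 in the 6 sham ozone libraries. The lowest vagotomised liver lay above the highest sham liver. The log2 change was 1.06 ± 0.14 (SE; adjusted p = 0.0290). Slc2a5 had 107, 94.1, 82.8, 72.3 and 102 in vagotomised ozone, against 33.0, 29.8, 25.4, 45.5, 47.9 and 41.3 in sham ozone. Here too the groups did not overlap, which held for 261 genes tested (2.11%), 143 of them higher (1.16%). The log2 change of Slc2a5 was 1.30 ± 0.19 (SE; adjusted p = 0.0426). Without vagotomised ozone library 1 and sham ozone library 3, when 3 genes were called (0.0244%), Lima1 had a log2 change of 1.09 (adjusted p = 0.0417) and Slc2a5 one of 1.14 (adjusted p = 0.0533).

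Neither call held in every set of libraries. With 1 of the 11 libraries left out, Lima1 had an adjusted p of 0.0185 to 0.163 and stayed called in 4 of 11 fits, and Slc2a5 had 0.0318 to 0.196 and stayed called in 3 of 11. Both calls held without sham ozone library 3, 4 or 6, and that of Lima1 also without vagotomised ozone library 2, while both were lost without vagotomised ozone library 1, 3, 4 or 5 or sham ozone library 1, 2 or 5. Their estimates moved little, between 0.99 and 1.13 for Lima1 and between 1.20 and 1.38 for Slc2a5.

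**Figure D1:**
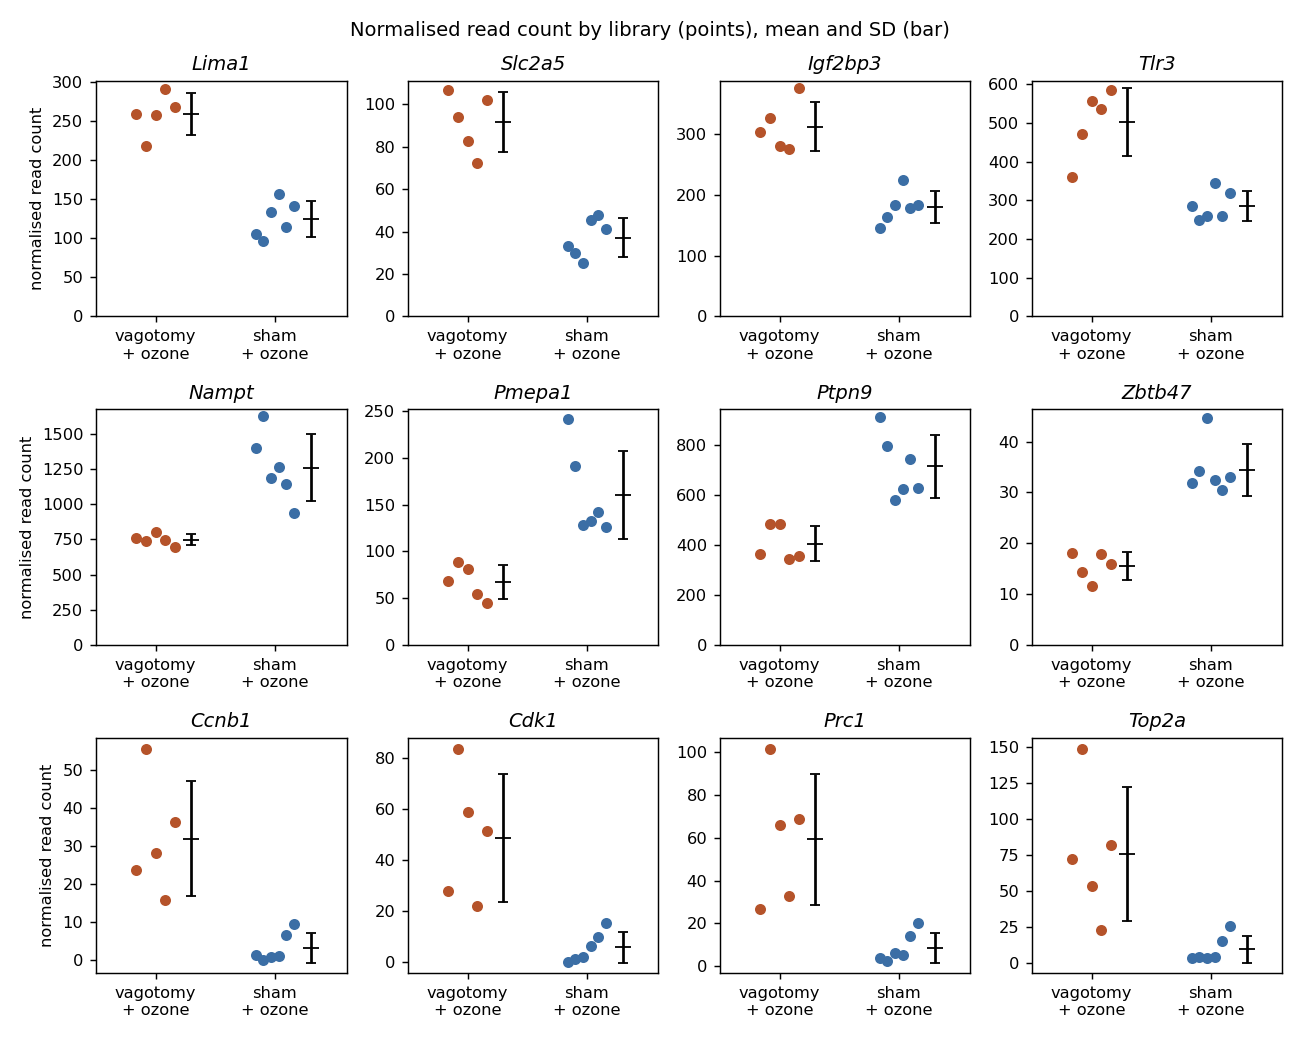
Normalised read counts (vertical axes, from 0) of 12 genes in each vagotomised ozone library (left, 5 points) and sham ozone library (right, 6 points), with the mean and SD of each group beside the points. The groups are apart for Lima1 (218 to 291 against 96.1 to 157) and Slc2a5 (72.3 to 107 against 25.4 to 47.9), while the mitosis genes in the bottom row spread widely among the vagotomised livers.

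A further 11 genes sat at an adjusted p of 0.05002, just outside the threshold, and 11 more came next in order of p. Igf2bp3, an RNA-binding protein of fetal tissues, had 302, 326, 279.7, 275 and 375 in vagotomised ozone and lay between 145 and 223 with a median of 181 in sham ozone, a log2 difference of 0.80 ± 0.13. Tlr3, the endosomal receptor for double-stranded RNA, had 361, 472, 557, 535 and 584 in vagotomised ozone and lay between 249.6 and 345 with a median of 272 in sham ozone (0.80 ± 0.14). For both genes, chosen by small p, every vagotomised liver was above every sham liver, which held for 1.16% of all genes tested.

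Nampt, the rate-limiting enzyme of NAD salvage, pointed the other way, with 760.02, 735, 800.4, 744 and 693 in vagotomised ozone and values between 936 and 1626 with a median of 1227 in sham ozone, a log2 difference of -0.73 ± 0.13. Its 5 vagotomised libraries lay close together, all below the sham range. Pmepa1, a TGF-beta induced inhibitor of Smad signalling, had 68.7, 88.3, 80.7, 54.5 and 44.8 in vagotomised ozone and was between 126 and 242 with a median of 138 in sham ozone (-1.24 ± 0.21). Ptpn9, a tyrosine phosphatase, had 361, 481, 483, 342 and 356 in vagotomised ozone, against values between 580.3 and 911 with a median of 685 in sham ozone (-0.82 ± 0.14). Zbtb47, a zinc finger protein, had 18.1, 14.4, 11.5, 17.8 and 15.9 in vagotomised ozone and was between 30.5 and 44.6 with a median of 32.7 in sham ozone (-1.10 ± 0.19). The groups were apart for all 3 of these genes, against 0.955% of all genes tested with vagotomised ozone below. They were chosen by small p, which favours such genes.

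Of the remaining genes with small p, those higher in vagotomised ozone were Zfp167 (0.92 ± 0.17), the guanine nucleotide exchange factor Arhgef19 (0.97 ± 0.18), Disp1, which releases hedgehog proteins from cells (0.80 ± 0.15), and Myo7b, a myosin of brush borders (0.91 ± 0.18). Lower estimates belonged to the organic ion transporter family member Slc22a23 (-0.77 ± 0.14), the splicing factor Srsf4 (-0.61 ± 0.11), Eva1c (-0.99 ± 0.19) and the adaptor protein Grb7 (-0.63 ± 0.12). Adjusted p ran from 0.0590 for Zfp167 to 0.0750 for Grb7. Slc22a23 was the most abundant of these, with 2448, 2635, 2877, 2572 and 2858 in vagotomised ozone and between 3545 and 6203 with a median of 4514 in sham ozone. The groups were apart for all 8 of these genes, against 2.11% of all genes tested, but a choice by small p favours such genes. The last 8 of the 24 genes with the smallest p are 6 genes of mitosis and 2 transcripts described after them. None of the 683 values of these 24 genes in 29 alternative settings had the opposite sign. The genes were chosen by p in these same libraries, so a kept sign is no independent support.

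**Figure D2:**
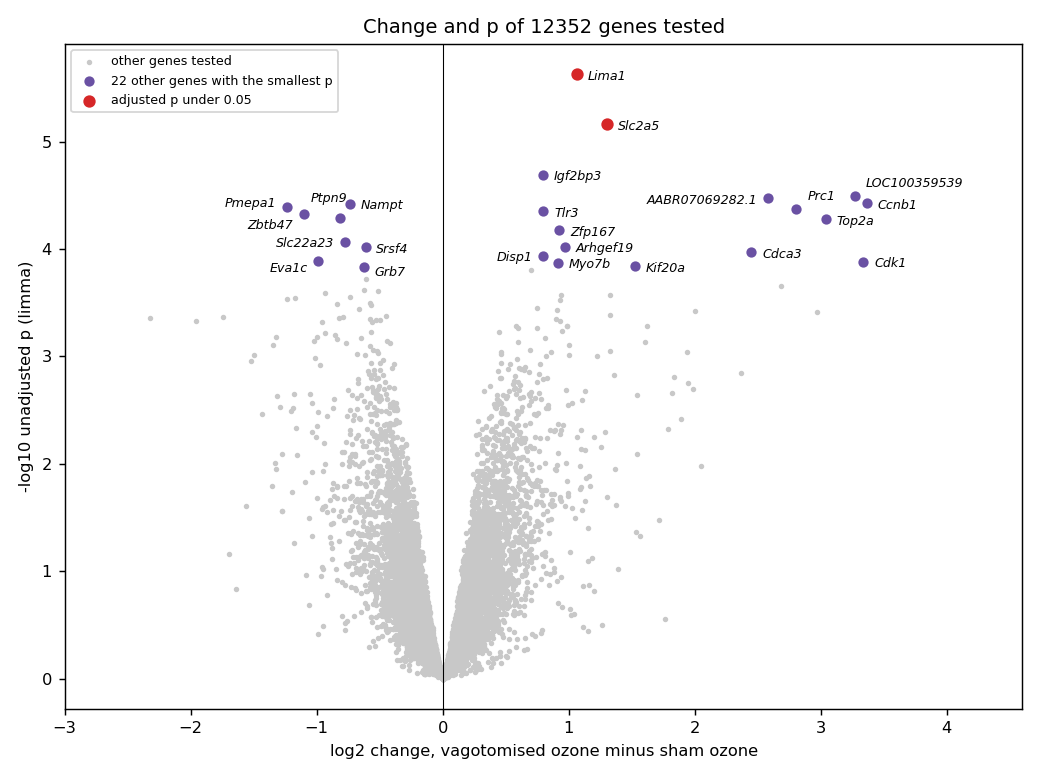
Log2 change, vagotomised ozone minus sham ozone (horizontal axis), against -log10 of the unadjusted limma p (vertical axis) for 12352 genes. Lima1 and Slc2a5, in red, passed an adjusted p of 0.05, and the other named genes, in purple, are the next by p, with a cluster of mitosis genes at log2 changes between 1.52 and 3.37.

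Genes of mitosis had the largest median estimate of the 39 pathway lists. Of 56 genes listed, 53 were in the table, and 51 of them had a higher estimate in vagotomised ozone, against 49.2% of all genes without a minimum mean. A minimum mean of 10 was met by 27 of the 53, but 15 of these 27 had a sham ozone mean below 10 and so passed through the vagotomised livers. The counts are therefore given for all 53, from the fit without a minimum. In it 45 of 53 had an unadjusted p under 0.05 in the higher direction and 0 in the lower, against 6.27% and 5.62% of all 14971 genes. The median estimate was 1.69 on the log2 scale, against -0.01 over the 12352 genes tested. In the fit without a minimum 5 members were called, against 0.0802% of all genes called higher, and groups were apart, with vagotomised ozone above, for 18 of 53, against 1.14% of all genes. In the fit with the minimum 0 of 27 passed the adjusted threshold, the median was 1.54, and 22 of 27 had an unadjusted p under 0.05. The list was chosen with earlier results of these data known.

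Cyclin B1 and the kinase Cdk1 together drive cells into mitosis. Ccnb1 had 23.8, 55.7, 28.3, 15.8 and 36.4 in the vagotomised ozone libraries, against 1.22, 0, 0.875, 1.01, 6.53 and 9.44 in the sham ozone libraries, a log2 difference of 3.37 ± 0.57 (adjusted p = 0.05002). In 4 of the 6 sham livers it was no higher than 1.22, and the other 2 were still below every vagotomised liver. Cdk1 had 27.7, 83.5, 58.7, 21.8 and 51.3 in vagotomised ozone, against 0, 1.10, 1.75, 6.06, 9.80 and 15.3 in sham ozone (3.34 ± 0.64, adjusted p = 0.0750). The spread among vagotomised livers was wide for Cdk1, with libraries 1 and 4 low and library 2 high, but the groups did not overlap.

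Prc1 bundles the microtubules of the spindle midzone. It had 26.7, 102, 66.0, 32.7 and 69.1 in vagotomised ozone, against 3.66, 2.21, 6.13, 5.05, 14.2 and 20.1 in sham ozone (2.81 ± 0.48, adjusted p = 0.05002), with no overlap. Top2a, the topoisomerase that untangles chromosomes, had 72.5, 149, 53.4, 22.8 and 82.1 in vagotomised ozone, against 3.66, 4.42, 3.50, 4.04, 15.2 and 25.95 in sham ozone (3.04 ± 0.53, adjusted p = 0.05002). For Top2a the lowest vagotomised library, number 4, was below the highest sham library, number 6.

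Cdca3, a trigger of mitotic entry, had 19.1, 38.4, 16.8, 5.94 and 17.7 in vagotomised ozone and was between 1.01 and 4.72 with a median of 2.10 in sham ozone (2.45 ± 0.46). Kif20a, a kinesin of cell division, had 28.6, 42.2, 25.1, 18.8 and 38.3 in vagotomised ozone and was between 5.25 and 17.4 with a median of 9.69 in sham ozone (1.52 ± 0.30). Both were apart between the groups. Among members under the minimum mean, the ubiquitin-conjugating enzyme Ube2c, which serves the anaphase-promoting complex, had 6.68, 10.6, 8.38, 6.93 and 7.46 in vagotomised ozone and 0, 0, 1.75, 0, 2.18 and 1.18 in sham ozone. Without a minimum mean it was called, with a log2 change of 2.45 ± 0.41 (adjusted p = 0.0434), beside Ccnb1, Prc1, Top2a and Cdca3. Such low counts rest on few reads, so the size of these changes depends on the value of 1 added before the log.

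Among further members, chosen after their values were seen, the kinetochore gene Ndc80 had a log2 difference of 2.65 ± 0.49, the kinase Plk1 2.07 ± 0.44, the checkpoint kinase Bub1 1.61 ± 0.38, the cytokinesis genes Racgap1 2.68 ± 0.55 and Ect2 2.97 ± 0.64, and the proliferation marker Mki67 1.83 ± 0.47. Mki67 had 33.4, 67.2, 27.2, 7.92 and 42.9 in vagotomised ozone and was between 4.38 and 16.5 with a median of 6.35 in sham ozone, so that library 4 of the vagotomised livers lay inside the sham range. The transcription factor Foxm1 had 0.66 ± 0.26. Ndc80 and Plk1 were below the minimum mean, so their SE is from the fit without it. The SE of Bub1, Racgap1, Ect2 and Mki67 is from the fit with it. Some members did not share the direction or the size, namely the kinase Aurka (-0.04 ± 0.18), which was the most abundant at 70.6, 98.9, 125, 76.3 and 119 in vagotomised ozone and between 73.5 and 119 with a median of 103 in sham ozone, the phosphatase Cdc25c (-0.11 ± 0.27) and Cks2 (0.00 ± 0.32). Aurka was the only member with a mean of at least 50, so the median of the list under that minimum was its own estimate.

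Summed over the 53 genes, normalised counts were 883, 1912, 1121, 649 and 1341 in vagotomised ozone, against 387, 311, 361, 436, 548 and 624 in sham ozone, sums in which long and abundant transcripts weigh most. The groups did not overlap, by a margin of 649 against 624. Vagotomised ozone library 2 was the highest of its group for 22 of the 27 genes tested and library 4 the lowest for 18, while in sham ozone library 6 was the highest for 15 and library 2 the lowest for 11. In vagotomised ozone the same 2 libraries were thus at the ends for most of these genes. In bulk liver, more cells in division and more of these transcripts per cell cannot be told apart. The part of other cell types in the mitosis values was not tested. The median change over all 53 genes was 1.72 without the 2 libraries low in 5.8S, 1.79 with equal column totals, and between 1.43, without vagotomised ozone library 2, and 1.96, without library 4 of the same group, with each library left out in turn, settings chosen after the data were seen.

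**Figure D3:**
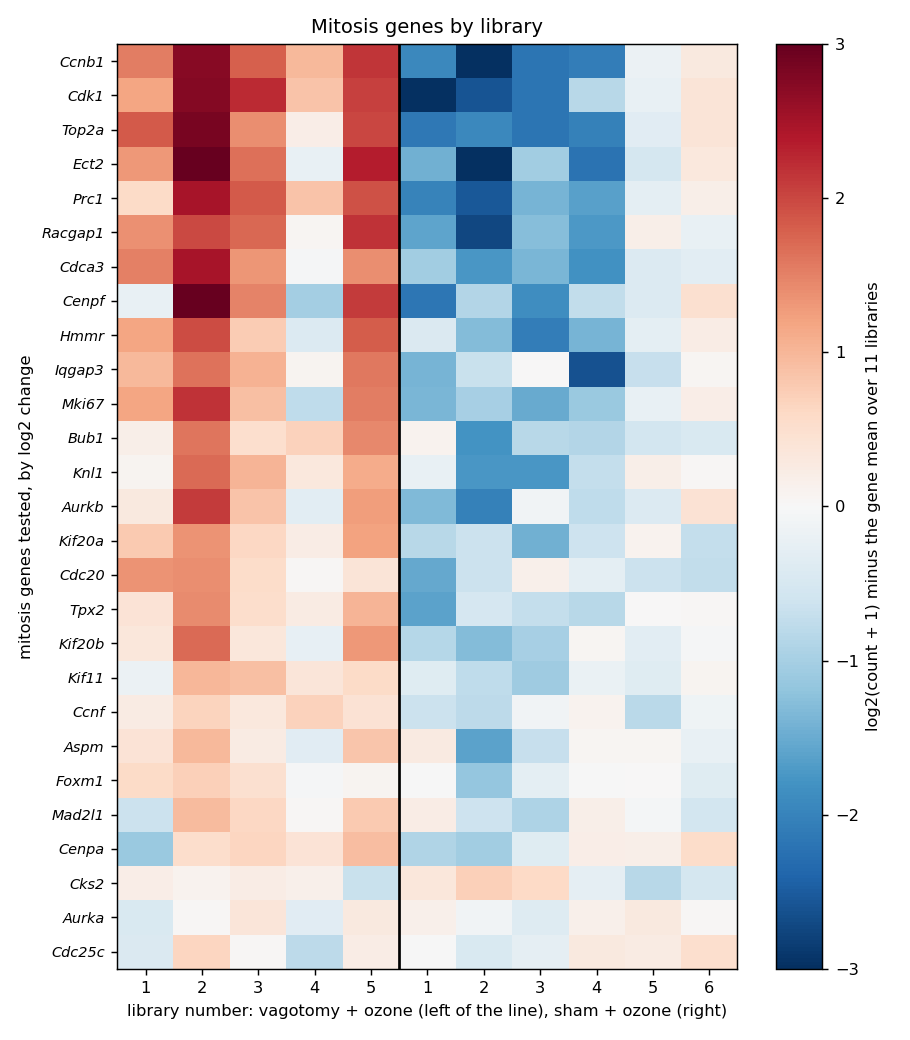
Log2(normalised count + 1) of the 27 mitosis genes tested, less each gene's mean over the 11 libraries (colour), with vagotomised ozone libraries 1 to 5 left of the line and sham ozone libraries 1 to 6 right of it. Library 2 is the highest of the vagotomised livers for 22 genes and library 4 the lowest for 18, and sham ozone libraries 5 and 6 are paler than libraries 1 to 4 for most of the upper rows.

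Promoters of 4 mitosis genes are shown because nearly all members of that list had estimates in the same direction, and these 4 were chosen after their values were seen. The promoter of Slc2a5 is shown because it is the only member of any list that was called. Sequences are from RefSeq on build GRCr8, from 250 bases before the start site to 50 after it, and capitals mark matches on either strand to TTTGAA or TTTAAA, the letters of the cell cycle homology region, and to CCAAT. The windows are chr2:33655176-33655475 (minus strand) for Ccnb1, chr20:19265043-19265342 (plus) for Cdk1, chr1:143659231-143659530 (plus) for Prc1, chr10:84473044-84473343 (minus) for Top2a and chr5:165865929-165866228 (plus) for Slc2a5.
Ccnb1: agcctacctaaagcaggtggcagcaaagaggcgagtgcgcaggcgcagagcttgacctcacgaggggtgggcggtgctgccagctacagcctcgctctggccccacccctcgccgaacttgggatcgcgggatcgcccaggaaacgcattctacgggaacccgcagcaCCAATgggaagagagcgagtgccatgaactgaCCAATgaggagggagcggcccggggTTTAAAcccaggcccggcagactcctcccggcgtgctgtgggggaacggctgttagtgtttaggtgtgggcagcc
Cdk1: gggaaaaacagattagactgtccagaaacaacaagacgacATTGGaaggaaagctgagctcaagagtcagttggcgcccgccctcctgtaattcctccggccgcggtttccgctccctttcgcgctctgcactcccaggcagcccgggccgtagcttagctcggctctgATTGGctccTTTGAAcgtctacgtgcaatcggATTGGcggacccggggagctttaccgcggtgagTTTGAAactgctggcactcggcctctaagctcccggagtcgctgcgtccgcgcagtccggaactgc
Prc1: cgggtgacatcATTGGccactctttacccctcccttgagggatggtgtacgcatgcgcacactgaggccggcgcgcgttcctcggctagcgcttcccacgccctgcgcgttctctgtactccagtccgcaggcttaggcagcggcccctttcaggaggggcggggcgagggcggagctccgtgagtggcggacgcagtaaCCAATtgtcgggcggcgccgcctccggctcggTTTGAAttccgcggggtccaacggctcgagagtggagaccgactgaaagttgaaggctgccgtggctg
Top2a: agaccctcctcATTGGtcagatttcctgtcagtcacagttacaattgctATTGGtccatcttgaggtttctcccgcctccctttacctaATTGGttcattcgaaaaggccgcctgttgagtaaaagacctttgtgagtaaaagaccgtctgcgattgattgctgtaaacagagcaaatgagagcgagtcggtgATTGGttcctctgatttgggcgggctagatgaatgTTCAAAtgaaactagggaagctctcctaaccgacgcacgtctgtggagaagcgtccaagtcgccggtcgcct
Slc2a5: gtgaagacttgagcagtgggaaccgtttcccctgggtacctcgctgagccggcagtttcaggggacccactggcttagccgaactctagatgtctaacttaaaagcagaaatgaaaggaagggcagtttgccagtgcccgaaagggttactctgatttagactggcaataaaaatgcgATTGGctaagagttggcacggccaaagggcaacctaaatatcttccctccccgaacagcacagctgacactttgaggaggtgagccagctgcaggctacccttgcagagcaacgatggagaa

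The promoters of Cdk1 and Prc1 hold TTTGAA on the gene's strand from positions -16 and -18 relative to the start site, Top2a holds it on the other strand, and Ccnb1 holds TTTAAA. Each of these 4 also holds CCAAT in the same stretch, and no matches overlap. TTTGAA or TTTAAA is found in 40 of 46 mitosis members that have a promoter in the RefSeq table (87%), against 7664 of all 27457 promoters (27.9%) and 18.6% of the 8796 promoters of genes tested. CCAAT is found in 73.9% of the 46, against 37.7% of all promoters. Of E2F letters only TTTCCCGC and TTTGGCGC were searched, on both strands. They are in 0 of the 46, in 1.03% and 0.521% of all promoters, and in 2.15% and 0.932% of those of genes tested. Other spellings were not searched and these shares are low, so 0 of 46 does not show a lack of E2F sequences. Slc2a5 has CCAAT on the other strand and neither TTTGAA nor TTTAAA. A match describes the letters in these windows and not a binding site.

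A further 2 transcripts with high estimates are listed under symbols that state no role. LOC100359539 had 39.1, 83.5, 34.6, 11.9 and 38.3 in vagotomised ozone and was between 0 and 6.53 with a median of 3.29 in sham ozone (3.27 ± 0.55). AABR07069282.1 had 22.9, 52.8, 25.1, 14.9 and 40.1 in vagotomised ozone and was between 1.10 and 8.26 with a median of 3.82 in sham ozone (2.58 ± 0.43). Their sham ozone means of 3.51 and 4.59 were below the minimum of 10, so both passed it only through the vagotomised livers. RefSeq gives the second as a synonym of Nek2l1, a pseudogene, so its reads may be shared with the mitotic kinase gene Nek2 and its value is uncertain. Nek2 itself had 7.63, 14.4, 19.9, 4.95 and 18.7 in vagotomised ozone and 0, 2.21, 3.50, 1.01, 7.62 and 11.8 in sham ozone (1.72 ± 0.59, from the fit without a minimum mean).

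DNA replication and nucleotide synthesis genes also had mostly higher estimates, at smaller sizes, with 0 of 26 called and a median of 0.36. Of the 26 tested, 20 had a higher estimate, against 48.1% of all genes. An unadjusted p under 0.05 was reached by 11 in the higher direction and 1 in the lower, against 6.4% and 6.2% of all genes. Without a minimum mean, 26 of all 32 in the table were above 0, 14 were higher and 1 lower at that p, and the median was 0.45. The shares of all genes were then 49.2%, 6.27% and 5.62%. Tyms, which makes thymidylate, had 39.1, 53.8, 50.3, 37.6 and 47.6 in vagotomised ozone and was between 14.4 and 28.3 with a median of 26.5 in sham ozone (0.99 ± 0.22, adjusted p = 0.105), with the groups apart. Among others under that p, chosen after their values were seen, were the helicase subunits Mcm3 (1.29 ± 0.39), Mcm5 (1.20 ± 0.37) and Mcm6 (0.98 ± 0.35) and the DNA ligase Lig1 (0.57 ± 0.15). Mcm3 and Mcm5, with sham ozone means of 7.47 and 7.69, passed the minimum of 10 only through the vagotomised livers. The polymerase subunit Pola1 had -0.49 ± 0.18.

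Cyclins, inhibitors and E2F factors of the G1 phase had 0 of 20 called, 15 higher and a median of 0.15, which was 0.09 without sham ozone library 2 and 0.24 with equal column totals. Of all genes tested 48.1% had a higher estimate. E2f2, an activator of S phase genes, had 144, 132, 102, 91.1 and 119 in vagotomised ozone and was between 34.2 and 93.0 with a median of 57.7 in sham ozone (1.00 ± 0.24), and 1 sham liver reached the vagotomised range. Cyclin D1, Ccnd1, which carries cells through G1, had 234, 228, 439, 298 and 226 in vagotomised ozone and was between 113 and 225 with a median of 162 in sham ozone (0.77 ± 0.19), with groups that only just stayed apart. Cdkn1a, the p21 inhibitor of cyclin-dependent kinases, had 2842, 3263, 2899, 1518 and 1302 in vagotomised ozone and was between 1939.8 and 4915 with a median of 3515 in sham ozone (-0.60 ± 0.27). Among 18 targets of p53, the list's smallest p belonged to the kinase Plk3, with 141, 172, 206, 93.1 and 49.5 in vagotomised ozone and values between 172 and 391 with a median of 279 in sham ozone (-1.18 ± 0.32), and 0 were called. Of these 18 targets 9 were above 0 and 9 below, with a median change of 0.02. At an unadjusted p under 0.05, 2 were higher and 3 lower, against 6.4% and 6.2% of all genes.

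Genes of glycolysis and fructose use included the called Slc2a5. Of 24 tested, 1 was called, 15 had a higher estimate, 4 had an unadjusted p under 0.05, all of them higher, and the median was 0.09 (0.20 with equal column totals). Among all genes, 48.1% had a higher estimate and 6.4% were higher at that p. Triose kinase, Tkfc, which phosphorylates glyceraldehyde made from fructose, had 3174, 2124, 2046, 1548 and 1889.6 in vagotomised ozone and was between 796 and 1671 with a median of 931 in sham ozone (0.98 ± 0.22, adjusted p = 0.105). Liver pyruvate kinase, Pklr, had 2105, 1126, 1047, 991 and 1107 in vagotomised ozone and was between 499.6 and 979 with a median of 831 in sham ozone (0.63 ± 0.21), with library 1 of the vagotomised livers far above the rest. Khk, the kinase that takes fructose into metabolism, had a log2 difference of -0.25 ± 0.26, and the glucose transporter Slc2a2 had 0.11 ± 0.11, both with overlapping groups.

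Fatty acid synthesis genes had 0 of 20 called, 14 higher, 5 with an unadjusted p under 0.05 in the higher direction and 1 in the lower, and a median of 0.15, which lay between 0.07 without vagotomised ozone library 1 and 0.27 without library 4. The shares of all genes were 48.1% with a higher estimate, and 6.4% higher and 6.2% lower at that p. Gpam, the first enzyme of glycerolipid synthesis, had 1784, 1489.98, 1278, 1597 and 2119 in vagotomised ozone and was between 715 and 1338 with a median of 1062 in sham ozone (0.69 ± 0.17, adjusted p = 0.125). The desaturase Fads2 had 13788, 11772, 10022, 9164 and 11522 in vagotomised ozone, all above the sham ozone values, which were between 7454 and 8772 with a median of 8127 (0.46 ± 0.11). Stearoyl-CoA desaturase, Scd, had 26113, 7286, 4438, 2595 and 3094 in vagotomised ozone, against 1201, 2267, 1878, 3110.3, 4942 and 2229.7 in sham ozone, a difference of 1.30 ± 0.50 that was widest in library 1, one of the 2 low in 5.8S. Without both of those libraries the median of the list was 0.06.

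Cholesterol synthesis and uptake genes had mostly lower estimates, with 0 of 26 called, 21 below 0, 3 with an unadjusted p under 0.05, all lower, and a median of -0.25. Over all genes tested 48.1% had an estimate above 0, and 6.4% were higher and 6.2% lower at that p. The median of the list was -0.13 without vagotomised ozone library 4, -0.15 without library 3, -0.31 without sham ozone library 1 and -0.14 with equal column totals. Squalene synthase, Fdft1, had 1357, 1266, 792, 629.8 and 1176 in vagotomised ozone and was between 1314 and 2164 with a median of 1427 in sham ozone (-0.63 ± 0.20, adjusted p = 0.207). Insig1, which holds back the sterol sensor SCAP, had 29049.5, 16773, 14749, 5857 and 6482 in vagotomised ozone and was between 13287 and 47845 with a median of 35851 in sham ozone (-1.28 ± 0.42). Vagotomised libraries 4 and 5 had the lowest Insig1 and libraries 1 to 3 were inside the sham range. Ketogenesis and fatty acid oxidation genes had 0 of 30 called and a median of 0.01, with Pdk4, which blocks glucose oxidation, at -0.55 ± 0.20.

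Glucocorticoid response genes had 0 of 21 called, 18 below 0, 5 with an unadjusted p under 0.05, all lower, and a median of -0.32. Over all genes tested 48.1% had an estimate above 0 and 6.2% an unadjusted p under 0.05 in the lower direction. Ddit4, a brake on mTORC1, had 61.0, 58.6, 45.0, 26.7 and 17.7 in vagotomised ozone and was between 55.6 and 129.6 with a median of 107 in sham ozone (-1.33 ± 0.31, adjusted p = 0.114). Klf9, a glucocorticoid-induced transcription factor, had 1992, 2072, 2194, 1332 and 1328 in vagotomised ozone, below all sham values, which were between 2214 and 3066 with a median of 2613 (-0.58 ± 0.15). Hsd11b1, the enzyme that regenerates active glucocorticoid in liver, had 4034, 4277, 4250.4, 4129 and 2349.6 in vagotomised ozone and was between 4348 and 8191 with a median of 6385 in sham ozone (-0.68 ± 0.19), also without overlap. The chaperone Fkbp5 had -0.51 ± 0.18, and the receptor gene Nr3c1 had 0.03 ± 0.09. Vagotomised libraries 4 and 5 held the lowest values of Ddit4, Klf9 and Fkbp5, and without library 5 the median of the list was -0.20, the smallest of the leave-one-out values, which reached -0.49 without sham ozone library 3. With equal column totals it was -0.22.

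The clock list shares Per1 with the glucocorticoid list. Of 22 clock genes tested 0 were called, 18 were below 0 and 6 had an unadjusted p under 0.05, all lower, with a median of -0.29 (-0.19 with equal column totals). Shares over all genes tested were 48.1% above 0 and 6.2% lower at that p. Cry1, a repressor of the clock, had 85.8, 105, 65.0, 77.2 and 80.2 in vagotomised ozone and was between 84.9 and 231 with a median of 130.1 in sham ozone (-0.71 ± 0.21), and sham library 1 stood far above the others. Per1 had 288, 234, 232, 176 and 94.2 in vagotomised ozone and was between 231 and 451 with a median of 323 in sham ozone (-0.79 ± 0.25). Dbp, whose transcript swings widely over the day, had 10.5, 20.2, 106, 52.5 and 68.1 in vagotomised ozone and 34.2, 45.3, 142, 164, 15.2 and 21.2 in sham ozone, a spread within each group far larger than the difference of -0.31 ± 0.66. The labels give no time of day for the necropsies, and the part of the hour in these values was not tested.

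Insulin and FOXO genes had 0 of 19 called, 14 below 0, 5 with an unadjusted p under 0.05, all lower, and a median of -0.32, against 48.1% of all genes above 0 and 6.2% lower at that p. The median was -0.17 without sham ozone library 1, -0.19 without sham ozone library 5, -0.42 without sham ozone library 4 and -0.22 with equal column totals. Trib3, a pseudokinase that binds AKT, had 90.6, 82.6, 69.1, 74.3 and 59.7 in vagotomised ozone and was between 84.9 and 248 with a median of 123 in sham ozone (-0.86 ± 0.24). Gluconeogenesis genes had 0 of 22 called, 5 with an unadjusted p under 0.05, all lower, and a median of -0.03, which ran from -0.08 without sham ozone library 4 to -0.01 without vagotomised ozone library 5. Hnf4a, the hepatocyte transcription factor, had 14441, 12370.1, 12449.5, 9055 and 8784 in vagotomised ozone and was between 14395 and 18928 with a median of 16352 in sham ozone (-0.55 ± 0.14). The coactivator Ppargc1a had 471, 558, 488, 187 and 137 in vagotomised ozone and was between 437 and 863 with a median of 614 in sham ozone (-0.95 ± 0.33), and libraries 4 and 5 were again the lowest. Pck1, the gate of gluconeogenesis, had -0.46 ± 0.21.

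Glycogen genes had 0 of 19 called, 3 higher and 2 lower at an unadjusted p under 0.05, against 6.4% and 6.2% of all genes. Gys2, the liver glycogen synthase, had 1635, 1650.3, 1943, 1336 and 1568 in vagotomised ozone and was between 867 and 1395 with a median of 1055 in sham ozone (0.60 ± 0.14, adjusted p = 0.115), and only 1 vagotomised liver lay inside the sham range. Targets of ATF4 and brakes of mTORC1 had 0 of 21 called and a median of -0.17, with 5 lower and 1 higher at that p, and the median was -0.08 without vagotomised ozone library 3 and -0.07 with equal column totals. Ddit4 had the smallest p of this list too, and Sesn2 had 2439, 1291, 1321, 765 and 680.2 in vagotomised ozone and was between 1377 and 4369 with a median of 2895 in sham ozone (-1.16 ± 0.35). Amino acid transport had 0 of 13 called and a median of -0.10, with values from -0.25 without sham ozone library 2 to -0.05 without sham ozone library 5, and the transporter Slc1a4 had 335, 303, 378, 191 and 159 in vagotomised ozone and was between 337 and 783 with a median of 519 in sham ozone (-1.01 ± 0.25).

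**Figure D4:**
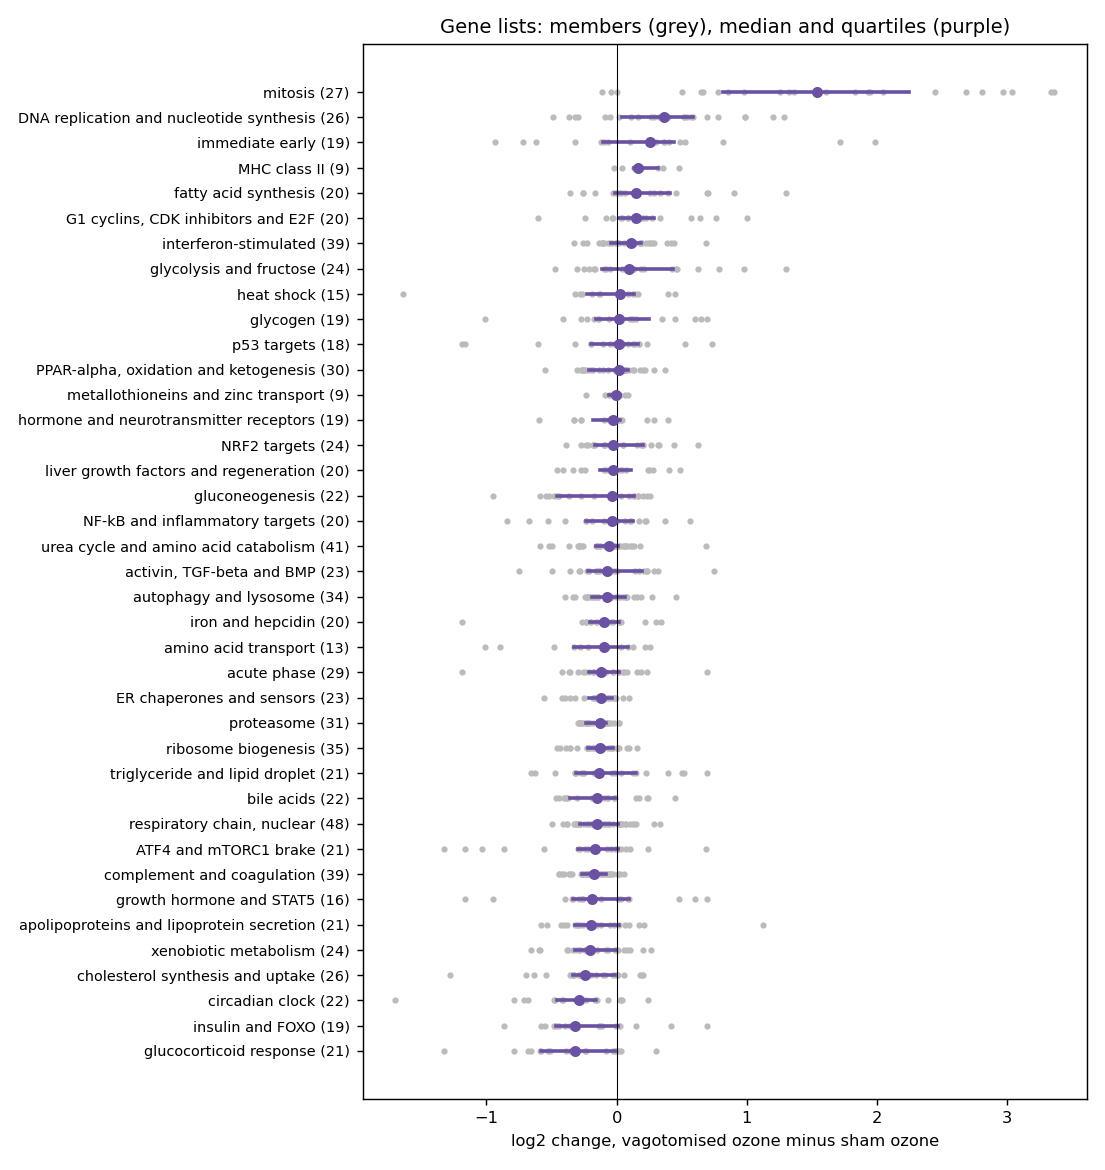
Log2 change, vagotomised ozone minus sham ozone (horizontal axis), of the tested members (grey points, number in brackets) of 39 pathway lists, with the median (purple point) and quartiles (purple bar). The mitosis list has a median of 1.54 over the 27 members tested, 15 of which passed the minimum mean only through the vagotomised livers (1.69 over all 53 in the table), DNA replication follows at 0.36, and the glucocorticoid and insulin lists are lowest at -0.32.

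Complement and coagulation genes, secreted by hepatocytes, had 0 of 39 called, 35 below 0, 9 with an unadjusted p under 0.05, all lower, and a median of -0.18. Of all genes tested 48.1% had an estimate above 0 and 6.2% were lower at that p. Plasma kallikrein, Klkb1, had 4946, 4859, 4863, 4261 and 4818 in vagotomised ozone, below all sham values, which were between 5243 and 7259 with a median of 6853 (-0.44 ± 0.10, adjusted p = 0.115). Factor XI, F11, had 3689, 3861, 4279, 3993 and 3384 in vagotomised ozone and was between 4582 and 6154 with a median of 4889 in sham ozone (-0.41 ± 0.10). The fibrinogen chain Fgb had 59982, 57525, 61444, 60634 and 60493 in vagotomised ozone and was between 65375 and 90229.9 with a median of 78612 in sham ozone (-0.37 ± 0.11). The groups were apart for these 3 members, against 0.955% of all genes tested with vagotomised ozone below.

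Summed over the complement and coagulation list, normalised counts were 917529, 843932, 879181, 925699 and 924841 in vagotomised ozone, against 944435 to 1079570 in sham ozone, with no overlap. This depended on the scaling. With all columns brought to equal totals, which moved the median change of all genes by 0.10 to 0.09, the sums were 874801 to 1028980 in vagotomised ozone and 906893 to 1044180 in sham ozone, and the median of the list was -0.07. Of the sums of all 55 lists, 2 were apart between the groups, those of mitosis and of complement and coagulation, and with equal totals only that of mitosis.

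Apolipoproteins and proteins of lipoprotein secretion had 0 of 21 called, 6 lower and 1 higher at an unadjusted p under 0.05, and a median of -0.19, against 6.2% of all genes lower and 6.4% higher. The median lay between -0.24 and -0.15 with each library left out in turn and was -0.09 with equal column totals. Apoa5, which promotes triglyceride clearance, had 10468, 7474, 8383, 9856 and 9001 in vagotomised ozone and was between 10580 and 19346 with a median of 12979 in sham ozone (-0.58 ± 0.16), with the groups apart. Angptl8, a hepatic protein induced by feeding, pointed the other way, with 172, 93.1, 157, 408 and 328 in vagotomised ozone and values between 55.5 and 168 with a median of 84.6 in sham ozone (1.13 ± 0.36).

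Acute phase genes had 0 of 29 called, 5 lower at an unadjusted p under 0.05 and a median of -0.12, which was -0.07 without sham ozone library 2 and -0.02 with equal column totals. Of all genes tested 6.2% were lower and 6.4% higher at that p, and 48.1% had an estimate above 0. Hamp, the iron hormone hepcidin, had 2219, 987, 1668, 2423 and 1207 in vagotomised ozone and was between 2137 and 8816 with a median of 3689 in sham ozone (-1.19 ± 0.33), with sham library 3, one of the 2 low in 5.8S, far above the rest. The cytokine receptor chain Il6st had -0.42 ± 0.12. Interferon-stimulated genes had 0 of 39 called, 26 above 0, a median of 0.11 that was 0.01 without sham ozone library 1, and 1 at an unadjusted p under 0.05, the ubiquitin ligase Dtx3l, with 731, 862, 863, 904 and 894 in vagotomised ozone and values between 549.9 and 936 with a median of 598 in sham ozone (0.42 ± 0.13). Mavs, the adaptor of cytosolic RNA sensors and no member of a list, was chosen after its value was seen and had 503, 518, 563, 628 and 496 in vagotomised ozone and was between 258 and 419 with a median of 328 in sham ozone (0.70 ± 0.14, adjusted p = 0.0766).

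Immediate early genes had 0 of 19 called, 4 higher and 2 lower at an unadjusted p under 0.05, and a median of 0.26, against 6.4% of all genes higher and 6.2% lower at that p. The median ranged from 0.05 without vagotomised ozone library 4 and 0.06 without library 5 to 0.45 without sham ozone library 1, and it was 0.14 without the 2 libraries low in 5.8S. Fos had 33.4, 24.001, 91.1, 147 and 40.1 in vagotomised ozone, against 19.5, 13.3, 5.25, 7.08, 43.6 and 9.44 in sham ozone (1.98 ± 0.53), and Egr1 had 928, 706, 1487, 2605 and 3176 in vagotomised ozone, against 695, 1249, 65.6, 127, 1094 and 1187 in sham ozone (1.72 ± 0.73). Both varied many-fold among livers of the same group and overlapped between groups. Myc had 49.6, 27.8, 28.3, 25.7 and 23.3 in vagotomised ozone and was between 29.3 and 115 with a median of 56.5 in sham ozone (-0.94 ± 0.32).

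The growth hormone target Socs2 had 17.2, 16.3, 17.8, 12.9 and 11.2 in vagotomised ozone, below all sham values, which were between 18.9 and 45.3 with a median of 36.6 (-1.17 ± 0.24, adjusted p = 0.102), while its list had 0 of 16 called and a median of -0.19, which was -0.05 without vagotomised ozone library 5 and -0.09 with equal column totals. Lists of housekeeping machinery had small estimates, mostly lower, while 48.1% of all genes tested had an estimate above 0. The proteasome had 0 of 31 called, 29 below 0 and a median of -0.13, with the smallest p at Psmc1 (-0.29 ± 0.11). Endoplasmic reticulum chaperones had 0 of 23 called, 21 below 0 and a median of -0.12, with Herpud1 at -0.56 ± 0.19. Ribosome biogenesis had 0 of 35 called, 27 below 0 and a median of -0.13, with Wdr43 at -0.43 ± 0.16. Nuclear genes of the respiratory chain had 0 of 48 called and a median of -0.15, and its smallest p belonged to Ndufs1, at 0.29 ± 0.10 with groups apart. Equal column totals, which moved the median of all genes by 0.10, brought these 4 medians to between -0.05 and -0.02, and without sham ozone library 3 those of ribosome biogenesis and the respiratory chain were -0.08 and -0.05.

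The other lists had 0 members called and medians between -0.20 and 0.16. Their members with the smallest p were Ces2c for xenobiotic metabolism (-0.38 ± 0.14, median -0.20), Abcc2 for bile acids (-0.47 ± 0.14, median -0.15), Gpam for triglyceride and lipid droplet genes (median -0.13), Bnip3 for autophagy and lysosome (-0.39 ± 0.12, median -0.07) and Kmo for the urea cycle and amino acid catabolism (-0.49 ± 0.15, median -0.06). The others were Inhbc for activin and TGF-beta (-0.36 ± 0.11), Tnfrsf1b for NF-kB targets (-0.52 ± 0.20), Hamp for iron, P2ry2 for hormone and transmitter receptors (-0.27 ± 0.10), Yap1 for liver growth factors (0.28 ± 0.11), Chordc1 for heat shock (0.45 ± 0.18), RT1-DMb for MHC class II (0.36 ± 0.15) and Mt1 for metallothioneins (-0.24 ± 0.21). Metallothioneins had 0 of 9 members even at an unadjusted p under 0.05. MHC class II genes had 8 of 9 above 0, against 48.1% of all genes, with a median of 0.16. Without vagotomised ozone library 5 the medians of xenobiotic metabolism and MHC class II were -0.10 and 0.10.

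The summed markers of all 16 cell types examined overlapped between the groups, with 0 members called. Hepatocyte markers had 6 of 10 above 0 and a median of 0.04. At an unadjusted p under 0.05, 2 of the 10 were lower and 0 higher, against 6.2% and 6.4% of all genes. Hnf4a, given above with gluconeogenesis, had the smallest p of these 10. Kupffer cell and macrophage markers, 14 of 14 in the table, had 11 of 13 tested with a higher estimate, against 48.1% of all genes, and a median of 0.10, which ran from -0.02 without vagotomised ozone library 5 to 0.30 without sham ozone library 3 and was 0.29 without the 2 libraries low in 5.8S. The sums of these markers were 7102 to 14030 in vagotomised ozone and 7301 to 10797 in sham ozone. Cd5l, with the smallest p, had 0.39 ± 0.18. Liver endothelial markers summed to 6274 to 7737 in vagotomised ozone and 5449 to 8755 in sham ozone. Of the 14 tested, 10 had a higher estimate, against 48.1% of all genes, and the median was 0.11. Clec4g, with the smallest p of that list, had -0.24 ± 0.13. Stellate cell and matrix markers summed to 4196 to 9771 in vagotomised ozone and 4627 to 7303 in sham ozone, and the collagen gene Col1a1 had 261, 199, 198, 154 and 99.8 in vagotomised ozone and was between 76.2 and 160.1 with a median of 113 in sham ozone (0.63 ± 0.23). Of the 13 stellate and matrix markers tested, 6 were above 0 and 7 below, with a median change of -0.01. Cholangiocyte markers summed to 2056 to 2326 in vagotomised ozone and 1939 to 2663 in sham ozone, with Epcam at -0.31 ± 0.17.

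T and NK cell markers, 10 of 16 in the table, summed to 166 to 404 in vagotomised ozone and 193 to 474 in sham ozone, with Nkg7 at -0.35 ± 0.42, and B cell and plasma cell markers, 6 of 10, to 219 to 453 in vagotomised ozone and 240 to 408 in sham ozone, with Ighm at -0.29 ± 0.20. Neutrophil markers, 5 of 12, summed to 20.0 to 93.3 in vagotomised ozone and 21.8 to 42.5 in sham ozone, with S100a9 at 0.25 ± 0.39. Dendritic cell markers summed to 103 to 137 in vagotomised ozone and 96.5 to 131 in sham ozone, and Clec9a had 0.64 ± 0.21. Erythroid and platelet markers, 5 of 15, summed to 4113 to 8886 in vagotomised ozone and 2399 to 7281 in sham ozone, with Slc4a1 at 0.50 ± 0.21.

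Markers of tissue beside the liver lobule were also within range. Mesothelium and capsule summed to 2829 to 3786 in vagotomised ozone and 2649 to 3965 in sham ozone, with Krt8 at 0.19 ± 0.11. Most of that sum was Krt8 alone, with means of 3247 of 3526 in vagotomised ozone and 2871 of 3092 in sham ozone. The sum therefore says little about capsule tissue, and which cells the Krt8 reads came from was not tested. Pancreas markers, 2 of 12 in the table, summed to 603 to 929 in vagotomised ozone and 591 to 975 in sham ozone, with Cpb1 at 0.41 ± 0.19. Muscle and fat, 3 of 11, summed to 13.4 to 39.1 in vagotomised ozone and 16.2 to 103 in sham ozone, with Cfd at -0.42 ± 0.43. Nerve and Schwann cell markers, 6 of 10, summed to 147 to 311 in vagotomised ozone and 170 to 269 in sham ozone. Of the 4 tested, 3 had a higher estimate, against 48.1% of all genes, with a median of 0.05. Without a minimum mean 5 of 6 were above 0, against 49.2% of all genes, with a median of 0.09, and only Ngfr was below. Ngfr, a neurotrophin receptor that stellate cells also express, had 111, 37.4, 34.6, 28.7 and 21.5 in vagotomised ozone and was between 46.5 and 86.1 with a median of 70.5 in sham ozone (-0.81 ± 0.33). Within the lobule, pericentral markers had a median of -0.10, with Axin2 at 0.53 ± 0.21, and periportal markers a median of -0.16, with Ass1 at -0.29 ± 0.12.

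The number of genes called in this comparison depended on the libraries and on the test. With 1 library left out it ranged from 0 to 12 and was 0 in 6 of 11 fits. It was 1 without vagotomised ozone library 1 (0.00811%) or library 2 (0.0081%), 10 without sham ozone library 3 (0.081%), 3 without sham ozone library 4 (0.0243%) and 12 without sham ozone library 6 (0.0972%), the sham liver with the highest mitosis values, when Ccnb1, Cdk1, Prc1 and Top2a were among the calls. It was 0 without vagotomised ozone library 3, 4 or 5 or without sham ozone library 1, 2 or 5. With upper quartiles made equal 11 genes were called (0.0891%), 8 of them higher and 3 lower. On read counts recovered from the table, edgeR called 17 genes (0.138%) and DESeq2 called 258 (2.09%), of which 133 were higher and 125 lower. Mitosis members among the calls numbered 5 of the 17 by edgeR and 18 of the 258 by DESeq2, with 27 members tested. These fits, and those with 1 library left out, kept the minimum mean of 10. Over the 11 libraries 15 of the 27 members met it only through the vagotomised livers, so their calls are no independent support.

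**Figure D5:**
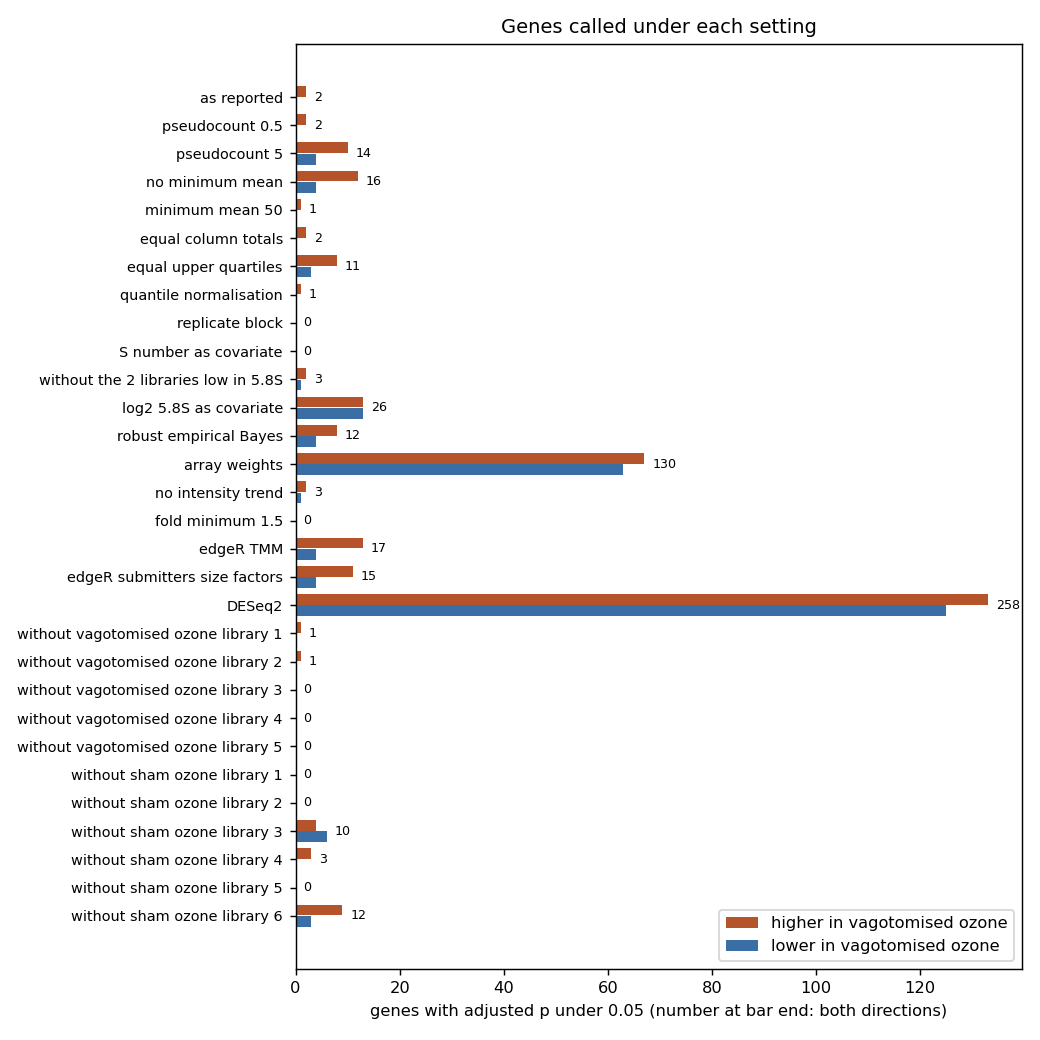
Number of genes with an adjusted p under 0.05 (horizontal axis, from 0) under the reported setting and 29 alternatives (rows), split into genes higher (orange) and lower (blue) in vagotomised ozone. Counts run from 0 to 258, and leaving out 1 library gives 0 to 12.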

How the data were processed

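RNA-seq was done on 22 rat liver samples, from total RNA, per the labels' protocols. The authors deposited 1 table of normalised counts for 14971 gene symbols, a signal that comes from read counts divided by a size factor per library. The submitters' processing notes name STAR, Partek, DESeq, DESeq2 and build rn6, with no version or role. Of 22 columns the 11 titled as ozone exposed were used, and all values were whole multiples of 1 read within 0.001, so read counts could be recovered (100% of values whole).

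The test took the 12352 genes whose mean over the 11 libraries reached 10. log2(normalised count + 1) was fitted with limma 3.58.1 in R 4.3.3, with an intensity trend and a two-sided test, and p-values were adjusted by Benjamini-Hochberg over all genes tested. Fold changes are vagotomised minus sham, and the added 1 understates those of low genes. edgeR 4.0.16 and DESeq2 1.42.0 on recovered counts were alternatives, and the scripts were checked on simulated data. No 2 libraries of a group agreed within sampling noise (lowest chi-square per degree of freedom 9.30 over 25 pairs). The libraries are treated as separate rats.

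Genes were named by rule: the called genes, then those with the smallest p up to 24, and the member with the smallest p of each list. The leading member of 2 lists is not reported here. Other genes with values were chosen after their values were seen. Members and lists were chosen with earlier results of these data known. A motif was searched in RefSeq promoters on build GRCr8, and symbols matched a RefSeq symbol for 12462 of 14971 rows and only a synonym for 616.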

Additional observations from a re-analysis of the deposited data

Results flagged for a closer look

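Within a group, 16 of 152 sets of values, 2 groups for each of 76 genes and summed measures, held 1 library far from the others, by Dixon's ratio of gap to range at the 95% level, which chance alone gives in about 1 of 20. No explanation was weighed.

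Vagotomised ozone library 1, low in 5.8S ribosomal RNA, was the highest of its group for Kmo at 1120 (next 890) and for Ngfr at 111 (next 37.4), and the lowest for Dtx3l at 731 (next 862). Sham ozone library 3, also low in 5.8S, was the highest of its group for Zbtb47 at 44.6 (next 34.2), Mt1 at 19605 (next 9998), Hamp at 8816 (next 4385), RT1-DMb at 202 (next 147) and Cfd at 88.4 (next 21.2). These 2 libraries thus held 8 of the 16 values.

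Among other vagotomised ozone libraries, number 3 was the lowest for Clec9a at 28.3 (next 42.9), number 4 the lowest for Klkb1 at 4261 (next 4818), and number 5 the highest for S100a9 at 49.5 (next 14.4). Among other sham ozone libraries, number 1 was the highest for Cry1 at 231 (next 139), number 2 for Krt8 at 3725 (next 2925), number 4 for Dtx3l at 936 (next 611), and number 5 for Fos at 43.6 (next 19.5) and Pdk4 at 1789 (next 1112).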

How the results depend on the processing

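The 2 genes called became 14 with 5 added before the log in place of 1, 16 without a minimum mean, 1 with a minimum mean of 50, 11 with equal upper quartiles (8 higher, 3 lower), 1 after quantile normalisation, 12 with robust empirical Bayes, 130 with array weights (67 higher, 63 lower), 26 with 5.8S as a covariate (13 higher, 13 lower) and 0 with a fold minimum of 1.5 (63 genes at an unadjusted p under 0.05). edgeR called 17 with TMM (13 higher, 4 lower) and 15 with the submitters' size factors, and DESeq2 258 (133 higher, 125 lower). The replicate number as a block gave 0 calls (1246 at an unadjusted p under 0.05), and the number that ends each label's description, as a covariate, gave 0 (1583). With each library left out in turn, counts ran from 0 to 12, with 1104 to 1831 genes at an unadjusted p under 0.05. Equal column totals and an added 0.5 gave 2, and 3 were called both without the 2 libraries low in 5.8S and without an intensity trend. The cause of these differences was not tested. Lima1 was called in 19 and Slc2a5 in 15 of the 29 alternatives.

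Same-numbered libraries of the groups did not deviate together (correlations from -0.318 to 0.050 over 5 pairs, 0 of 5 highest with its own number), so the numbers were not taken as pairs. Of the named genes' values under alternatives, 1870 kept their direction and side of the threshold, 172 passed it newly, 24 lost it and 1 reversed, S100a9, at -0.14 without vagotomised ozone library 5 and up to 0.39 without another. Equal column totals changed the sign of several small list medians, among them gluconeogenesis, the urea cycle, NRF2 and NF-kB targets, iron and autophagy. Low counts limit the mitosis genes, of which 23 of 53 had no read in at least 1 sham library.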

Other observations

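A few genes outside all lists had large estimates, and they were chosen after their values were seen. Akr1b7, an aldo-keto reductase, had 246, 124, 40.9, 69.3 and 812 in vagotomised ozone and was between 18.3 and 63.7 with a median of 22.7 in sham ozone (2.37 ± 0.60, limma adjusted p = 0.144). Inmt, an N-methyltransferase, had 17.2, 28.8, 43.0, 50.5 and 27.1 in vagotomised ozone and was between 48.4 and 286 with a median of 153 in sham ozone (-1.96 ± 0.43, adjusted p = 0.102). Tsku, a secreted protein made by the liver, had 2397, 1575, 1442, 743 and 567 in vagotomised ozone and was between 2256 and 7468 with a median of 3650.1 in sham ozone (-1.75 ± 0.38, adjusted p = 0.102). None of the 3 passed the threshold.

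The 5.8S ribosomal RNA had normalised counts of 38.1, 802, 1782, 1854 and 1748 in vagotomised ozone, against 2351, 3775, 72.6, 596, 1619 and 754 in sham ozone (exact permutation test, two-sided, p = 0.712). The sum of 60 small nucleolar RNA rows was 173 in vagotomised ozone library 1 and 110.3 in sham ozone library 3, the 2 lowest (exact permutation test between groups, two-sided, p = 0.556). The smallest p that permutations of 5 and 6 libraries allow is 0.004329.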
